A study of Mus musculus with 12 samples.

Results

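The caveolin and cavin genes make the coat of caveolae. They were taken here as 7 genes chosen by symbol, namely Cav1, Cav2, Cavin1, Cavin2, Cavin3, Ehd2 and Pacsin2, of 55487 genes in the deposited table. Each symbol had 1 row, and all 7 passed the filter on low values, which asked that 2 or more of the 12 libraries reach a TPM of 1. TPM, a share of all transcripts, is corrected for transcript length but not for GC content, so levels can be compared between genes only roughly. The rule went by symbol and not by a measured value, but it was set with earlier results of these data known.

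RNA of the mouse fibroblast line 3T3-L1, whose cells become adipocyte-like under hormonal induction, was sequenced in 12 libraries of 6 groups. All cells carried a lentiviral short hairpin and were selected with puromycin. The hairpin was a scrambled control (shScram) or targeted Fto (shFto), which encodes an RNA demethylase. The titles do not say which of the study's Fto hairpins was used. Loss of Fto, other effects of a hairpin and differences between the lines therefore cannot be told apart. Each line was sampled as preadipocytes (Pre), at mitotic clonal expansion (MCE), when induced cells re-enter the cell cycle, and after differentiation (Diff), with 2 libraries a group. Nothing states that the 2 libraries came from separate cultures, so the p-values measure the spread between these libraries, which may be technical. Fto stood at 52.7 to 73.5 TPM in the 6 shScram libraries and at 5.51 to 7.47 TPM in the 6 shFto libraries, without overlap (log2 difference -3.09, exact permutation within stages, two-sided p = 0.00926, the smallest that 216 arrangements allow).

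The results below were touched by a pair of libraries that differed from each other, and by an entry that conflicts with its title. The shScram Pre libraries correlated with each other at r = 0.939 over genes, against 0.990 to 0.993 in the other 5 groups. Their difference ran with the GC content of genes (Spearman rho -0.69, replicate 1 minus replicate 2, over 15928 genes; -0.20 to 0.36 in the other groups). Among the 7 genes, the 4 with the highest GC content (Pacsin2, Ehd2, Cavin3 and Cavin1, 52.7 to 57.3%) were lower in replicate 1, and the 3 with the lowest (Cav2, Cav1 and Cavin2, 37.5 to 44.4%) were higher in it. These measures compare the 2 libraries with each other and cannot show which of them departed. The results that rest most on this pair are given with and without replicate 1, and in places without replicate 2. For replicate 1 of shScram Diff the treatment entry names the Fto knockdown whereas the title names shScram; the title was followed, and its Fto level was that of the other shScram libraries.

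Caveolae are small flask-shaped invaginations of the plasma membrane, and adipocytes are among the cells richest in them. Caveolins are hairpin-shaped membrane proteins that oligomerise in the inner leaflet; Cav1 is the form needed for caveolae outside striated muscle, and Cav2 assembles with it. Cavins are soluble coat proteins recruited to caveolin-rich membrane: Cavin1 is required for the coat, Cavin2 helps to shape its curvature and Cavin3 is an accessory cavin. Ehd2, an ATPase, sits at the neck and holds caveolae at the surface, and Pacsin2 (syndapin 2) is an F-BAR protein that bends the membrane there.

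Cav2 and Cav1 are neighbours on GRCm38 chromosome 6 and are read in the same direction. Cav2 spans bases 17281185 to 17289115 and Cav1 bases 17306335 to 17341452, with 17219 bases between them. The antisense model Gm15581, at 0.0335 TPM or less, overlaps both. Cavin1 is on chromosome 11 (100956733 to 100970887), Cavin2 on chromosome 1 (51289126 to 51302960), Cavin3 and Ehd2 on chromosome 7 (105480083 to 105482300 and 15946958 to 15967567), and Pacsin2 on chromosome 15 (83375607 to 83464606). Antisense or pseudogene models also overlap Cavin2, Cavin3 and Pacsin2, and their levels reached at most 3.23 TPM (Gm5417, within Pacsin2).

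The RefSeq promoter table (GRCm38.p6) held 6 of the 7 genes, all but Cavin3. The 100 bases before the RefSeq start farthest upstream are shown for the neighbours Cav2 and Cav1, for Cavin1, whose protein the coat requires, and for Cavin2, the gene whose values moved most. Sequences run 5' to 3' on the gene's strand. For Cavin1 the RefSeq start (100970617) lies within the GENCODE gene, which reaches 100970887, so its stretch is inside the annotated gene. Capitals mark GGGCGG (the GC box) or CCAAT (the CCAAT box) on either strand.

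Cav2 (chr6:17281085-17281184, plus strand): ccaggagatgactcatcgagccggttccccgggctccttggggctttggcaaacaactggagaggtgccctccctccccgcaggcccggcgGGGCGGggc
Cav1 (chr6:17306235-17306334, plus strand): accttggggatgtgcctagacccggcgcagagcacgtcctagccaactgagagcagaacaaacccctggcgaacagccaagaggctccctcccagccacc
Cavin1 (chr11:100970618-100970717, minus strand): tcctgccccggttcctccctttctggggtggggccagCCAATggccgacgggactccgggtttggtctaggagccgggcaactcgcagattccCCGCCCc
Cavin2 (chr1:51289026-51289125, plus strand): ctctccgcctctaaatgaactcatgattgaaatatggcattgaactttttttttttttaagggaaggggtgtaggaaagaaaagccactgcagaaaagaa

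The stretch of Cav2 ends in a GC-rich run that holds GGGCGG 9 bases before the start, and that of Cavin1 holds CCAAT at 63 bases and GGGCGG, on the opposite strand, at 7 bases before it. The stretches of Cav1 and Cavin2 held neither motif. Among 32851 promoters, 24.7% held GGGCGG and 18.9% held CCAAT in the same 100 bases. Over the whole 300-base window, from 250 bases before to 50 after the start, GGGCGG was present in Cav1, Cav2, Cavin1, Ehd2 and Pacsin2 (35.7% of all promoters) and not in Cavin2. CCAAT was present in all of these 6 genes but Cav1 (37.4% of all promoters), and in Cavin2 it lay 140 bases before the start. These matches are descriptions of letters only.

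The transcripts of the coat were abundant. The mean level of Cav1 in a group ran from 405 to 1495 TPM, above 97.9% or more of the tested genes in every group, and that of Cavin1 from 304 to 797 TPM, above at least 97.0%. Ehd2 (122 to 263 TPM), Cavin3 (104 to 160 TPM) and Cav2 (59.9 to 172 TPM) came next, with overlapping ranges. Pacsin2 (37.2 to 64.6 TPM) and Cavin2 (10.1 to 66.2 TPM) were lowest. Cavin2 had the widest range for its level. The muscle forms were near absence: Cav3 was listed at 0 in every library and Cavin4 reached at most 1.22 TPM.

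**Figure D1:**
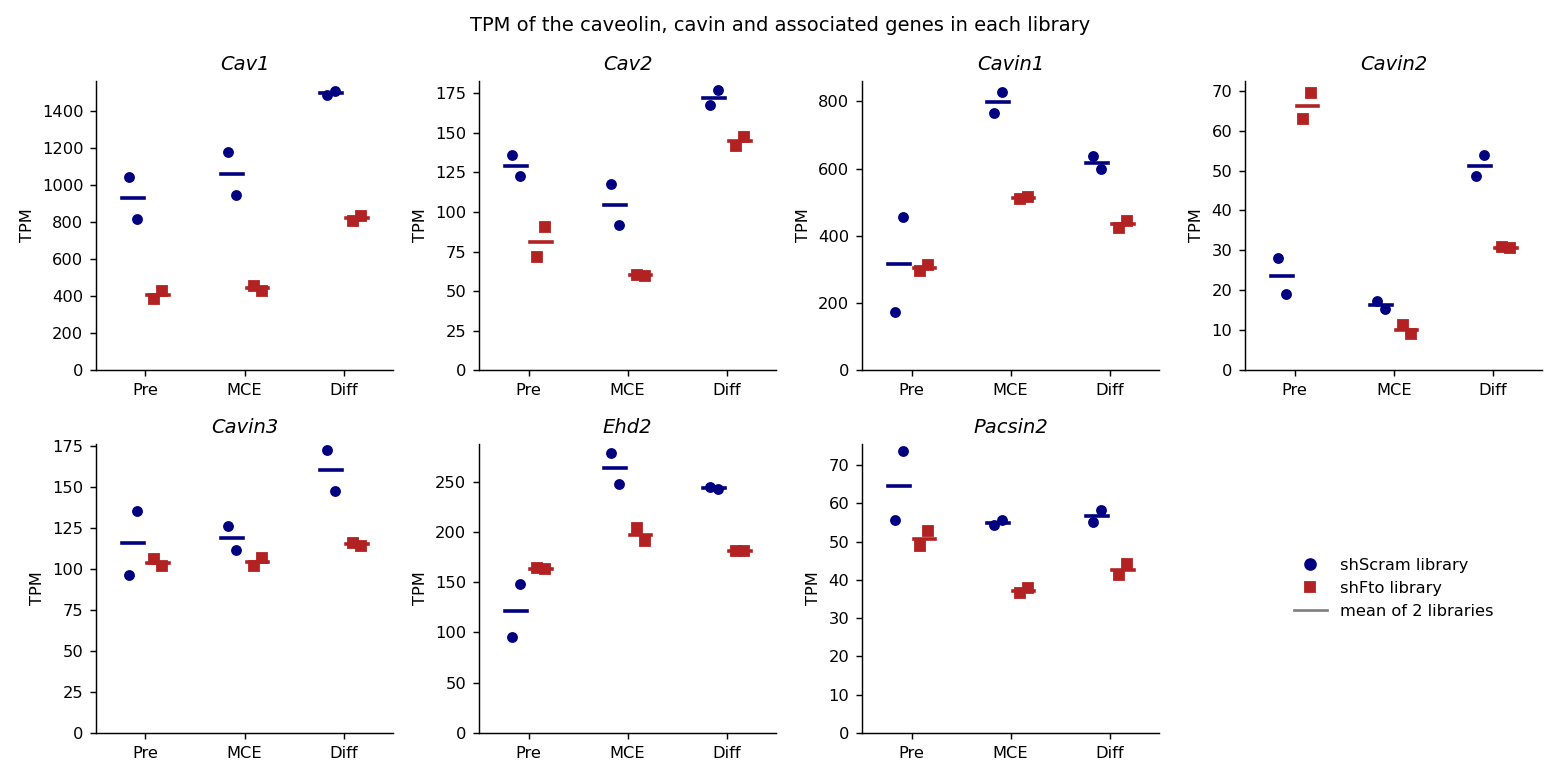
TPM of each of the 7 genes in the 12 libraries (circles, shScram; squares, shFto; bars, mean of 2 libraries) at the Pre, MCE and Diff stages, each panel on its own linear axis from 0. The shFto libraries of Cav1 lie below the shScram libraries at all 3 stages, Cavin2 is higher in shFto cells as preadipocytes (62.9 and 69.4 against 28.0 and 19.0 TPM) and lower later, and the shScram Pre libraries of Cavin1 lie far apart (174 and 455 TPM).

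The labels give both lines at each stage, so shFto was compared with shScram cells stage by stage. Cav1 was lower in shFto cells at all 3 stages and Cav2 at the Pre and MCE stages, Cavin2 was higher in preadipocytes and lower afterwards, and Pacsin2 was lower at MCE. With all 12 libraries in limma and Benjamini-Hochberg adjustment over 15968 genes, an adjusted p under 0.05 was reached in preadipocytes by 2 of 7 genes lower (12.3% of all tested genes were lower) and 1 higher (15.9% of all). At MCE 4 of 7 were lower (7.26% of all) and 0 higher (10.5% of all; 0 also at an unadjusted p under 0.05 in limma). At the Diff stage 2 of 7 were lower (9.31% of all) and 0 higher (11.9% of all; 0 at an unadjusted p under 0.05). The median log2 difference over the 7 genes was -0.14 at Pre, -0.63 at MCE and -0.47 at Diff, beside 0.08, 0.05 and 0.03 over all tested genes. Without shScram Pre replicate 1 the Pre median was -0.53, beside 0.00 over all genes. In bulk RNA, fewer cells of a type and less RNA per cell cannot be told apart.

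In every one of the 7 genes both shFto libraries lay below both shScram libraries at MCE (30.3% of all tested genes) and again at Diff (34.0% of all). In preadipocytes this held for 3 of 7, Cav1, Cav2 and Pacsin2 (26.9% of all). The study's own rule was a fold change over 2 or under 0.5 with an unadjusted p under 0.05. It was applied here to the limma fit on TPM, whereas the study used DESeq2. Cav1 was past the lower limit at Pre (4.4% of all genes) and at MCE (3.96%). Cavin2 was past the upper limit at Pre, with a 2.81-fold higher mean TPM. The share of all genes past that limit was not computed, so this count cannot be set beside it. At Diff 0 of 7 were past the lower limit (4.23% of all), where 5 were lower at an unadjusted p under 0.05 in limma.

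**Figure D2:**
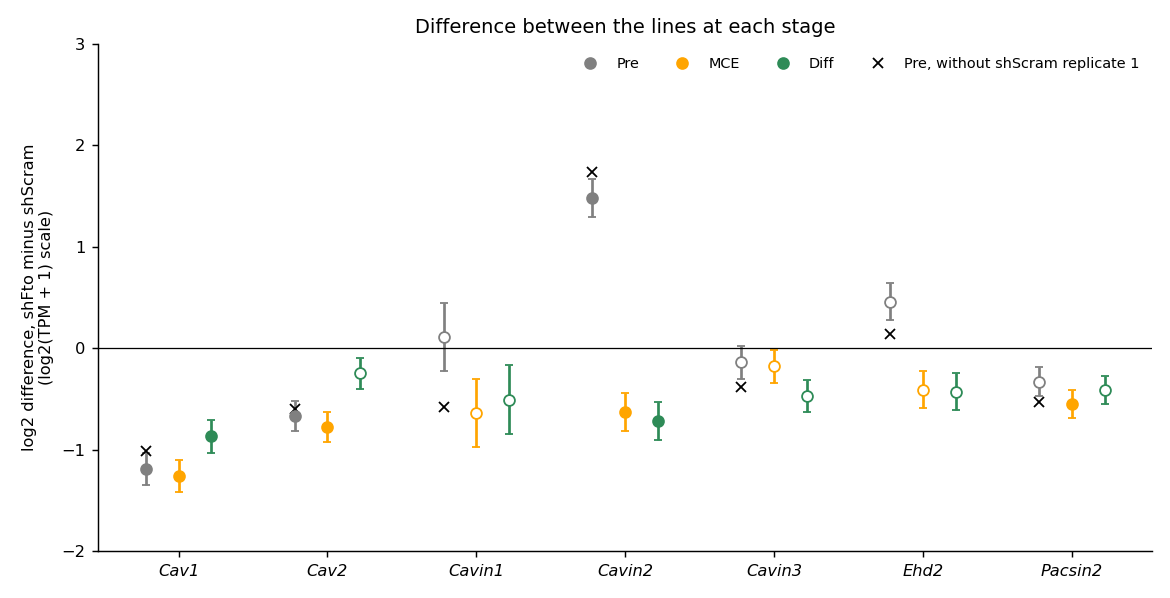
Log2 difference, shFto minus shScram, on the log2(TPM + 1) scale for each gene at the 3 stages (circles with the standard error of the fit on 12 libraries; filled, adjusted p under 0.05); crosses give the Pre difference without shScram Pre replicate 1. Cav1 lies between -1.26 and -0.87, Cavin2 changes from 1.48 at Pre to -0.63 and -0.72, and the cross of Cavin1 is at -0.58 where its circle is at 0.11.

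Cav1, the structural caveolin, had 1044 and 817 TPM in the shScram Pre libraries and 386 and 425 TPM in the shFto Pre libraries. At MCE the shScram libraries had 1176 and 947 TPM, and the shFto libraries 455 and 428 TPM. At Diff the shScram libraries reached 1486 and 1504 TPM, and the shFto libraries 808 and 833 TPM. The lines did not overlap at any stage, and the differentiated shFto cells stood where the lower shScram preadipocyte library did.

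The mean TPM of Cav1 in shFto cells was 2.30-fold lower at Pre, 2.41-fold lower at MCE and 1.82-fold lower at Diff. The log2 difference was -1.19 (SE 0.16, adjusted p = 0.00164) at Pre, -1.26 (SE 0.16, adjusted p = 0.000899) at MCE and -0.87 (SE 0.16, adjusted p = 0.00508) at Diff. The call stood with each of the 12 libraries left out in turn at all 3 stages. Without shScram Pre replicate 1 the Pre difference was -1.01 (adjusted p = 0.000282), and with a correction for GC content it was -0.87 (adjusted p = 0.000325). Without shScram Diff replicate 1 the Diff difference was -0.87 (adjusted p = 0.0359). In a fit on the 4 Pre libraries alone its adjusted p was 0.197, and 0 of 15968 genes passed there (3 of the 7 genes had an unadjusted p under 0.05). A change in the difference of Cav1 between stages did not pass with all 12 libraries (interaction of MCE against Pre -0.07, SE 0.22, adjusted p = 0.861; of Diff against Pre 0.32, SE 0.22, adjusted p = 0.400). Without shScram Pre replicate 1 these were -0.24 (adjusted p = 0.345) and 0.15 (adjusted p = 0.579), and without replicate 2 of that group the latter was 0.50 and passed (adjusted p = 0.0227).

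Cav2, the partner of Cav1, had 136 and 123 TPM in shScram Pre, 117 and 91.6 TPM in shScram MCE and 167 and 177 TPM in shScram Diff. In shFto cells it had 71.8 and 90.6 TPM at Pre, 60.5 and 59.4 TPM at MCE and 142 and 147 TPM at Diff. The lines were separate at each stage, least so at Diff. The log2 difference was -0.67 (SE 0.15, adjusted p = 0.0153) at Pre and -0.78 (SE 0.15, adjusted p = 0.00833) at MCE. At Diff it was -0.25 (SE 0.15), which did not pass (adjusted p = 0.296).

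The Pre value of Cav2 held without shScram Pre replicate 1 (-0.60, adjusted p = 0.0154), but not without shFto Pre replicate 1 (-0.51, adjusted p = 0.112), and with the GC correction it was -0.13 (adjusted p = 0.474). At MCE its call was lost without shScram MCE replicate 1 or without either shFto MCE library (adjusted p up to 0.0702). The Cav1 level per Cav2 level was 6.66 to 7.68 in shScram and 4.69 to 5.37 in shFto preadipocytes, 10.0 to 10.3 and 7.21 to 7.52 at MCE, and 8.51 to 8.88 and 5.66 to 5.69 at Diff. In each stage the shFto libraries held less Cav1 relative to Cav2 than the shScram libraries, without overlap.

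Cavin1, the cavin the coat requires, had 174 and 455 TPM in shScram Pre, 766 and 828 TPM in shScram MCE and 637 and 598 TPM in shScram Diff. In shFto cells it had 297 and 312 TPM at Pre, 509 and 514 TPM at MCE and 424 and 444 TPM at Diff. The shFto Pre libraries lay between the shScram Pre libraries, whereas at MCE and Diff all shFto values were below the shScram values. Because the spread is shared over groups, the shScram Pre pair set the standard error of 0.34 for each stage. The log2 difference was 0.11 at Pre (adjusted p = 0.824), -0.64 at MCE (adjusted p = 0.261) and -0.51 at Diff (adjusted p = 0.345).

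Without shScram Pre replicate 1 the Cavin1 difference at Pre was -0.58, and without replicate 2 of that group in its place it was 0.80. The direction at Pre thus rested on which library stood for the control. At MCE and Diff the differences stayed at -0.64 and -0.51 with either shScram Pre library left out, and their spread narrowed. Whether they passed therefore rested on that pair. With the GC correction on all 12 libraries the difference was -0.57 at Pre (adjusted p = 0.0108), -0.76 at MCE (adjusted p = 0.00217) and -0.69 at Diff (adjusted p = 0.00327).

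Cavin2, which shapes the coat, passed the test in opposite directions at different stages. In preadipocytes it had 28.0 and 19.0 TPM with the control hairpin, and 62.9 and 69.4 TPM with the Fto hairpin. At MCE the shScram libraries had 17.2 and 15.2 TPM, and the shFto libraries 11.2 and 9.03 TPM. At Diff these values were 48.5 and 53.8 TPM, and 30.8 and 30.6 TPM. The shFto libraries were above the shScram libraries at Pre and below them at the other stages.

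Mean Cavin2 was 2.81-fold higher in shFto preadipocytes (log2 difference 1.48, SE 0.19, adjusted p = 0.00124; 1.74, adjusted p = 2.63e-05, without shScram Pre replicate 1). The call stood with each library left out, but not in the fit on the 4 Pre libraries alone (adjusted p = 0.183). At MCE Cavin2 was lower by a log2 value of -0.63 (SE 0.19, adjusted p = 0.0461), a call that remained past the threshold only where a shScram Pre library was left out: without any 1 of the other 10 libraries its adjusted p was above 0.05, up to 0.276, and it was lost under 5 of the 12 other settings. At Diff it was lower by -0.72 (SE 0.19, adjusted p = 0.0247). That call was lost without any 1 of the 4 Diff libraries, with shScram Diff replicate 1 among them (-0.79, adjusted p = 0.0799), up to an adjusted p of 0.144.

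The shFto minus shScram difference of Cavin2 itself differed between stages. It changed by -2.11 from Pre to MCE (SE 0.26, adjusted p = 0.00314) and by -2.19 from Pre to Diff (SE 0.26, adjusted p = 0.002); without shScram Pre replicate 1 by -2.38 (adjusted p = 3.73e-05) and -2.46 (adjusted p = 2.35e-05). Among the 7 genes it alone passed in these interaction tests with all 12 libraries (5.11% and 7.67% of all tested genes did). Between MCE and Diff 0 of 7 passed (2.49% of all genes; 1 at an unadjusted p under 0.05 in limma). Without shScram Pre replicate 1, Ehd2 passed beside Cavin2, with changes of -0.56 (adjusted p = 0.00841) and -0.57 (adjusted p = 0.00601), where 14.1% and 17.8% of all genes passed.

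Cavin3, the accessory cavin, had 96.5 and 136 TPM in shScram Pre, 126 and 112 TPM in shScram MCE and 173 and 148 TPM in shScram Diff. It had 106 and 102 TPM, 102 and 107 TPM and 116 and 114 TPM in the shFto libraries of the same stages. Its level in shFto cells thus stayed within 102 to 116 TPM. Differences were -0.14 (SE 0.16, adjusted p = 0.529), -0.18 (SE 0.16, adjusted p = 0.518) and -0.47 (SE 0.16, adjusted p = 0.0764). Without shScram Pre replicate 1 the Pre difference was -0.38. The Diff value stayed at -0.47 with either shScram Pre library left out, and its spread narrowed. Whether it passed therefore rested on that pair. With the GC correction the differences were -0.74 (adjusted p = 0.00227) at Pre, -0.29 (adjusted p = 0.113) at MCE and -0.63 (adjusted p = 0.00388) at Diff.

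Ehd2, the ATPase of the caveola neck, had 95.2 and 148 TPM in shScram Pre, 279 and 248 TPM in shScram MCE and 245 and 242 TPM in shScram Diff. The shFto libraries had 164 and 163 TPM, 204 and 191 TPM and 181 and 181 TPM. They were above both shScram libraries at Pre and below both later. The log2 difference was 0.46 at Pre (SE 0.18, adjusted p = 0.0861), -0.41 at MCE (SE 0.18, adjusted p = 0.167) and -0.43 at Diff (SE 0.18, adjusted p = 0.137). With shScram Pre replicate 1 left out the Pre value was 0.14, and without replicate 2 of that group it was 0.77. The MCE and Diff values stayed at -0.41 and -0.43 with either of these libraries left out, and their spread narrowed. Whether they passed therefore rested on that pair. With the GC correction the differences were 0.02 (adjusted p = 0.88) at Pre, -0.49 (adjusted p = 0.00181) at MCE and -0.53 (adjusted p = 0.000993) at Diff.

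Pacsin2, the membrane-bending partner, had 55.6 and 73.7 TPM in shScram Pre, 54.3 and 55.6 TPM in shScram MCE and 55.1 and 58.3 TPM in shScram Diff. The shFto libraries had 48.8 and 52.7 TPM, 36.5 and 37.8 TPM and 41.1 and 44.0 TPM, below the shScram libraries at each stage. The log2 difference was -0.33 at Pre (SE 0.14, adjusted p = 0.104), -0.55 at MCE (SE 0.14, adjusted p = 0.0267) and -0.41 at Diff (SE 0.14, adjusted p = 0.0751). The MCE call was lost without any 1 of the 4 MCE libraries (adjusted p up to 0.156). Without shScram Pre replicate 1 the Pre value of Pacsin2 was -0.53. The MCE and Diff values stayed at -0.55 and -0.41 with either shScram Pre library left out, and their spread narrowed. Whether the Diff value passed therefore rested on that pair. With the GC correction the differences were -0.63 (adjusted p = 0.000757) at Pre, -0.61 (adjusted p = 0.00059) at MCE and -0.47 (adjusted p = 0.00239) at Diff.

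With all 12 libraries the difference lay below 0 in 4 of the 7 genes at Pre, 7 at MCE and 7 at Diff. Of all tested genes, 44.9%, 44.7% and 47.5% lay below 0. Without shScram Pre replicate 1 the counts of the 7 were 5, 7 and 7. Without replicate 2 of that group instead, Cavin1 and Ehd2 were higher in shFto cells at Pre (0.80 and 0.77), so the Pre picture depended on which library was kept.

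The stages of each line were compared to follow the coat through adipogenesis. Cavin1 and Ehd2 rose from Pre to MCE in shScram cells, Cav1, Cav2 and Cavin2 rose from MCE to Diff in both lines, and Cavin2 fell from Pre to MCE in shFto cells. The median of all tested genes itself moved by -0.17 (shScram) and -0.18 (shFto) from Pre to MCE and by 0.23 and 0.17 from MCE to Diff, a shift that median-ratio scaling took away, so changes are also given relative to it. With that scaling 20.1% of all genes rose and 17.7% fell from Pre to MCE in shScram cells and 14.2% and 14.1% in shFto cells, and from MCE to Diff 11.7% rose and 11.1% fell in shScram cells and 15.4% and 12.7% in shFto cells. All stage comparisons of shScram Pre share the pair of libraries that differed from each other.

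From Pre to MCE in shScram cells, 2 of 7 genes rose (12.2% of all tested genes rose) and 0 fell (26.9% of all; 1 at an unadjusted p under 0.05 in limma). Cavin1 rose by 1.50 (SE 0.34, adjusted p = 0.00936; 1.66 relative to the median of all genes), and by 0.81 (adjusted p = 3.66e-05) without shScram Pre replicate 1. Its call was lost without shScram MCE replicate 2 (adjusted p = 0.0598). Ehd2 rose by 1.14 (SE 0.18, adjusted p = 0.00161; 1.31 relative to the median), and by 0.82 (adjusted p = 3.33e-05) without shScram Pre replicate 1.

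In shFto cells 0 of 7 rose at this step (8.8% of all; 0 at an unadjusted p under 0.05) and 2 fell (19.9% of all). Cavin2 fell 6.53-fold in mean TPM, by a log2 value of -2.60 (SE 0.19, adjusted p = 1.96e-05; -2.42 relative to the median). In shScram cells the same step of Cavin2 was -0.49 (SE 0.19, adjusted p = 0.0651; -0.22 without shScram Pre replicate 1). Pacsin2 changed by -0.44 (SE 0.14, adjusted p = 0.0456; -0.25 relative to the median), a call lost without any 1 of the 10 libraries outside shScram Pre, and under 6 of the 12 other settings, median-ratio scaling among them. The values of Cavin1 and Ehd2 in shFto cells were 0.75 (SE 0.34, adjusted p = 0.143) and 0.27 (SE 0.18, adjusted p = 0.321). Both values stayed the same with either shScram Pre library left out, and their spread narrowed. Whether they passed therefore rested on that pair. With the GC correction they were 1.04 (adjusted p = 0.000214) and 0.51 (adjusted p = 0.000842).

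From MCE to Diff, 3 of 7 genes rose in shScram cells (20.0% of all tested genes) and 3 in shFto cells (20.2% of all), Cav1, Cav2 and Cavin2 in each line. In neither line did any fall (0 of 7 beside 5.22% of all in shScram and 6.48% in shFto; 0 at an unadjusted p under 0.05 in both). Cavin2 rose 3.16-fold in shScram cells (log2 1.60, SE 0.19, adjusted p = 0.000634; 1.37 relative to the median) and 3.03-fold in shFto cells (1.52, SE 0.19, adjusted p = 0.000643; 1.35 relative to the median). Cav2 rose by 0.72 (SE 0.15, adjusted p = 0.00992; 0.49 relative to the median) and by 1.26 (SE 0.15, adjusted p = 0.00064; 1.09 relative to the median). Cav1 rose by 0.50 (SE 0.16, adjusted p = 0.0469; 0.27 relative to the median) and by 0.89 (SE 0.16, adjusted p = 0.00388; 0.73 relative to the median).

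The shScram calls of Cav1 and Cav2 at this step were lost under median-ratio scaling, while their shFto calls stood. That of Cav1 was also lost without any 1 of the 10 libraries outside shScram Pre (adjusted p up to 0.293; 0.149 without shScram Diff replicate 1) and under 7 of the 12 other settings. That of Cav2 was lost without shScram MCE replicate 2 or shScram Diff replicate 2 (adjusted p up to 0.087), and with the GC correction it was 0.26 (adjusted p = 0.176). The other genes did not pass at this step in the main fit. The values of Cavin1 were -0.37 in shScram and -0.24 in shFto cells. With either shScram Pre library left out their spread narrowed, so whether they passed rested on that pair. With the GC correction Cavin1 gave -0.53 (adjusted p = 0.0133) and -0.46 (adjusted p = 0.0208). Ehd2 gave -0.28 (adjusted p = 0.0267) and -0.32 (adjusted p = 0.0118) there.

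**Figure D3:**
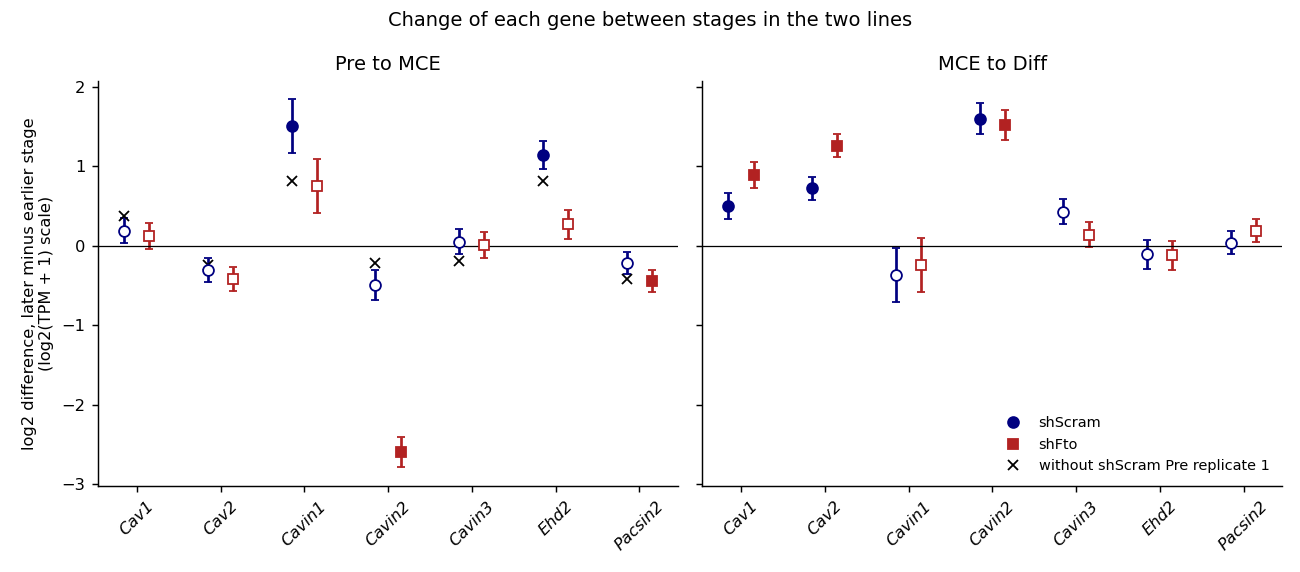
Log2 difference between stages on the log2(TPM + 1) scale in shScram (circles) and shFto (squares) cells, with standard errors; filled symbols have an adjusted p under 0.05, and crosses give the shScram step without Pre replicate 1. Cavin2 in shFto cells lies at -2.60 from Pre to MCE, and Cav1, Cav2 and Cavin2 lie above 0 in both lines from MCE to Diff.

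Over the whole course, Diff against Pre, 4 of 7 genes rose in shScram cells (13.9% of all tested genes) and 0 fell (13.2% of all; 0 at an unadjusted p under 0.05). They were Cav1 (0.69, SE 0.16, adjusted p = 0.0116), Cavin1 (1.13, SE 0.34, adjusted p = 0.0397), Cavin2 (1.11, SE 0.19, adjusted p = 0.00245) and Ehd2 (1.03, SE 0.18, adjusted p = 0.00337). Without shScram Pre replicate 1 these values were 0.87, 0.44, 1.38 and 0.72, and all passed. The call of Cavin1 was lost without any 1 of the 10 libraries outside shScram Pre, and that of Cav1 without either shScram Diff library (adjusted p = 0.0649 without replicate 1) and under quantile normalization. In fits on the 4 libraries of the comparison alone, 0 of 7 genes passed for Diff or for MCE against Pre in shScram cells (3 and 2 at an unadjusted p under 0.05 in limma). In shFto cells 2 of 7 rose (9.84% of all) and 1 fell (8.49% of all). Cav1 rose by 1.02 (SE 0.16, adjusted p = 0.00235), Cav2 rose by 0.83 (SE 0.15, adjusted p = 0.00555; 0.0519 without shFto Pre replicate 1) and Cavin2 fell by 1.08 (SE 0.19, adjusted p = 0.00392). Cavin2 thus ended above its Pre level in shScram cells and below it in shFto cells.

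The proportions of the coat transcripts are ratios within a library. They compare genes of unlike GC content, so those of shScram Pre carry the limit described above. The first value given for that group is that of replicate 1. The Cavin1 level per Cav1 level was 0.167 and 0.557 in shScram Pre, 0.652 and 0.875 in shScram MCE and 0.429 and 0.397 in shScram Diff. It was 0.769 and 0.735, 1.12 and 1.20, and 0.525 and 0.533 in the shFto libraries of these stages. The shFto values were above the shScram values at each stage, and Cavin1 exceeded Cav1 only in the 2 shFto MCE libraries. Cav1 made up 41.2 to 64.1% of the summed TPM of the 7 genes in shScram libraries and 31.8 to 46.4% in shFto libraries. The 64.1% was that of shScram Pre replicate 1, where replicate 2 had 46.1%, and the next highest was 54.1% in shScram Diff replicate 2. That sum was 1630 to 1772 TPM at Pre, 2297 to 2536 TPM at MCE and 2781 to 2811 TPM at Diff in shScram cells, and 1135 to 1215, 1346 to 1377 and 1742 to 1794 TPM in shFto cells.

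**Figure D4:**
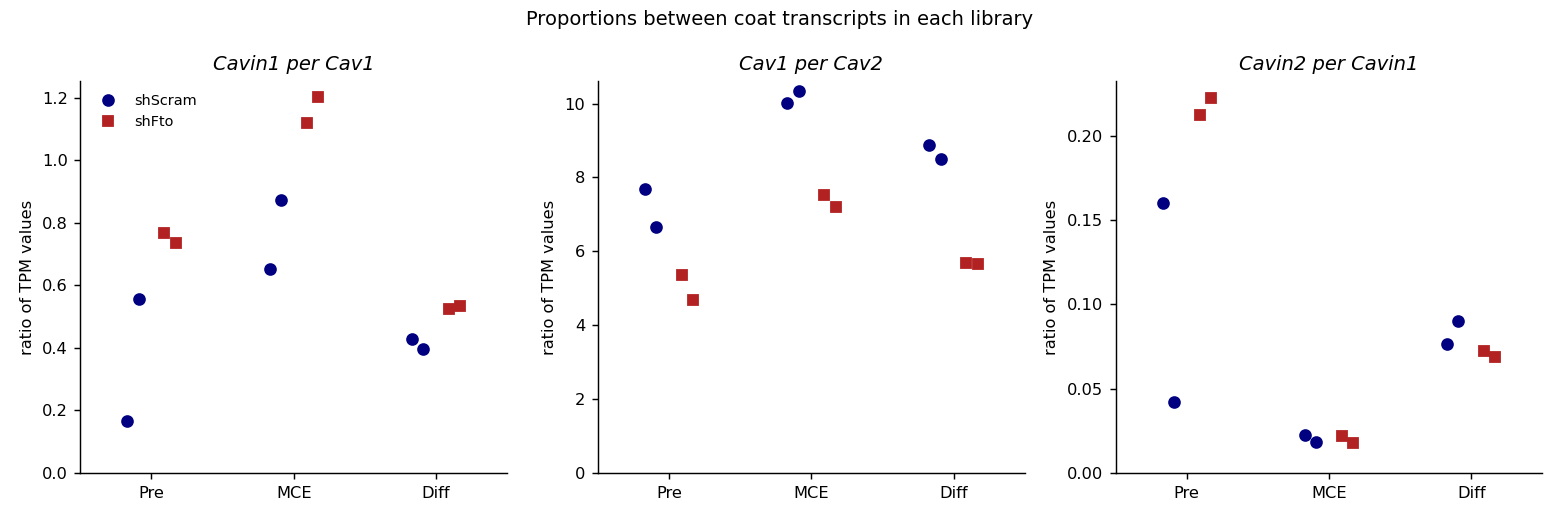
Ratios of TPM values within each library (circles, shScram; squares, shFto) at the 3 stages, with every axis from 0. Cavin1 per Cav1 is higher in shFto libraries at each stage (1.12 and 1.20 against 0.652 and 0.875 at MCE), Cav1 per Cav2 is lower in them, and Cavin2 per Cavin1 is near 0.02 in all 4 MCE libraries.

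Cavin2 per Cavin1 was 0.212 and 0.222 in shFto preadipocytes against 0.160 and 0.0418 in shScram preadipocytes. At MCE it was 0.0176 to 0.0225 in all 4 libraries, and at Diff 0.0762 and 0.0900 in shScram and 0.0726 and 0.0690 in shFto. The lines overlapped in this ratio at MCE but not at the other stages.

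Across the 12 libraries, which share 6 group means, the levels of Cav1 and Cav2 correlated at Pearson r = 0.86 (log2(TPM + 1); 0.86 without shScram Pre replicate 1, n = 11) and those of Cavin1 and Ehd2 at 0.93 (0.87). Cav1 and Cavin1 correlated at 0.36, or 0.70 without that library. Cavin2 followed none of the other genes closely (-0.36 to 0.46, or -0.50 to 0.47). Among 10799 other tested genes with a mean of 5 TPM or more, those most like Cav1 over the 12 libraries were Phka2 (r = 0.979), Pdp1 (0.977) and Vav3 (0.977), and those most like Cavin1 were Rpl9 (0.980), Poldip3 (0.978) and Id3 (0.966). Without shScram Pre replicate 1 the same genes had r = 0.984, 0.982 and 0.978 with Cav1, and 0.963, 0.964 and 0.942 with Cavin1. All of these are descriptions over libraries that share line and stage.

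**Figure D5:**
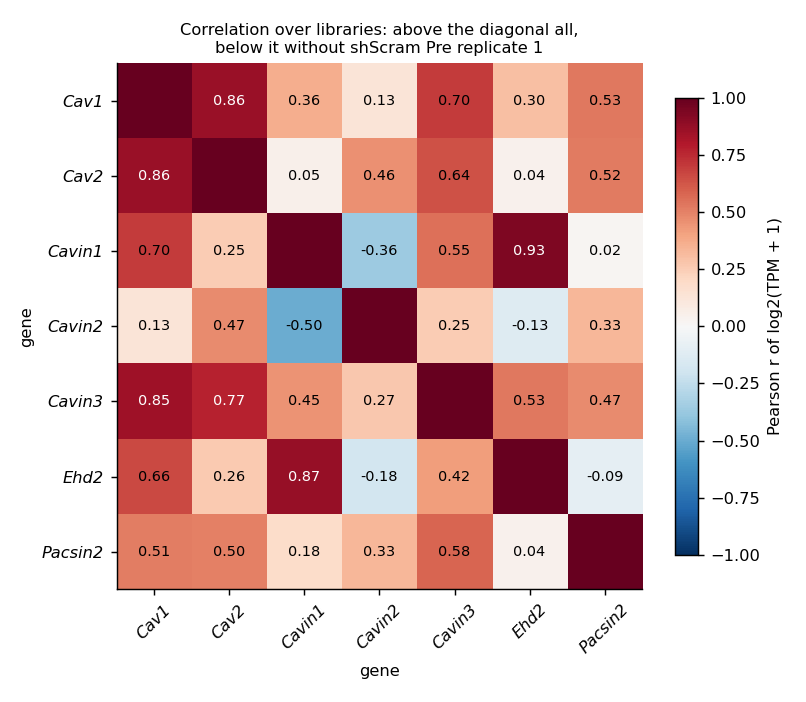
Pearson r of log2(TPM + 1) for each pair of the 7 genes, over 12 libraries above the diagonal and over 11 without shScram Pre replicate 1 below it; the colour runs from -1 (blue) to 1 (red). The pairs Cavin1 and Ehd2 (0.93) and Cav1 and Cav2 (0.86) are highest over 12 libraries, and Cav1 and Cavin1 move from 0.36 to 0.70 without that library.

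Of 17 further genes of caveolae and their neighbours (muscle forms, related EHD and PACSIN proteins, dynamin, filamin, flotillins, kinases and cargo), 13 were tested. Those lower in shFto cells were 1 at Pre, 2 at MCE and 2 at Diff, and those higher were 1, 0 and 2, with medians over the 13 of 0.31, 0.00 and 0.14. Of all tested genes 12.3%, 7.26% and 9.31% were lower and 15.9%, 10.5% and 11.9% higher. With shScram Pre replicate 1 left out the counts were 1, 4 and 3 lower and 2, 2 and 6 higher, where 29.0%, 41.0% and 45.7% of all genes passed in either direction. Ehd3, a relative of Ehd2 that works in endosomal traffic, was higher at Pre (18.5 and 17.5 against 9.13 and 11.0 TPM; 0.78, SE 0.13, adjusted p = 0.00486; 0.66 without shScram Pre replicate 1, adjusted p = 0.00225) and lower at MCE (29.7 and 27.2 against 51.9 and 47.4 TPM; -0.78, SE 0.13, adjusted p = 0.00422) and at Diff (-0.43, SE 0.13, adjusted p = 0.0488). Its shScram level rose by 2.20 from Pre to MCE (SE 0.13, adjusted p = 6.7e-06), and that in shFto cells by 0.63 (SE 0.13, adjusted p = 0.00738).

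Cd36, a fatty acid transporter found in caveolae, was the other gene of that list lower at MCE and Diff. It reached 148 and 151 TPM in shScram Diff and 2.71 and 1.24 TPM in shFto Diff (log2 difference -5.71, SE 0.23, adjusted p = 1.34e-06). Flot1, of the flotillins that mark another kind of membrane domain, was higher in shFto Diff cells (191 and 203 against 131 and 118 TPM; 0.66, SE 0.17, adjusted p = 0.0216). Fyn, a membrane-bound kinase, was higher there too (0.56, SE 0.12, adjusted p = 0.012). Cavin4, of muscle, was lower at Pre (0.476 and 0.402 against 1.22 and 1.07 TPM; -0.57, SE 0.15, adjusted p = 0.0237; adjusted p = 0.109 without shScram Pre replicate 1). The paralogues Pacsin3 (14.8 to 76.9 TPM) and Ehd1 (30.3 to 106 TPM) did not pass between the lines with all 12 libraries. Ehd1 was higher in shFto cells by 1.02 at Pre with all 12 libraries and by 0.34 without shScram Pre replicate 1. It was higher by 0.26 at MCE and 0.29 at Diff, and Pacsin3 was higher by 0.55 at Diff. These later values were the same without that library, but whether they, or Ehd1 at Pre, passed depended on it.

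Markers of other cells were read beside these values. The summed level of 9 adipocyte markers was 138 to 196 TPM at Pre, 406 to 412 TPM at MCE and 1580 to 1593 TPM at Diff in shScram cells, against 277 to 308, 292 to 302 and 442 to 477 TPM in shFto cells. The sum was therefore higher in shFto cells at Pre, where Cav1 and Cav2 were lower, and lower in them at MCE and Diff. At Pre only Lpl, Fabp4, Lipe and Pparg reached 1 TPM in both libraries of either line, so these carried the sum. Adipoq, Cidec and Cd36 were at 0 in both shFto Pre libraries, and of the list only Adipoq was so in shScram Pre. The part of adipocyte conversion in the later differences was not tested. The 7 preadipocyte and fibroblast markers were present in all groups. Their sums at Pre were 2886 and 5154 TPM in the discordant shScram pair and 5438 and 5441 TPM in shFto cells. At MCE they were 3393.5 to 3645 TPM in shScram and 5165 to 5576 TPM in shFto cells. At Diff these were 4333 to 4502 and 7661 to 8007 TPM. Of 4 smooth muscle markers, Acta2 carried the list with Tagln: sums were 311 to 462 TPM in shScram and 1058 to 1147 TPM in shFto preadipocytes, 7.81 to 10.5 and 167 to 188 TPM at MCE, and 24.9 to 32.8 and 89.5 to 92.1 TPM at Diff. Cavin2 moved with that list at Pre and against it later, and its part in the result was not tested.

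Endothelial cells, which are rich in caveolae, left little trace: none of 6 endothelial markers reached 1 TPM in both libraries of any group, their sum was at most 1.24 TPM and Kdr was at 0 throughout. Of 7 skeletal muscle markers, Myod1, Myh2 and Cav3 were at 0, with a sum of at most 1.87 TPM. The 5 macrophage markers summed to 1.62 to 11.0 TPM, with Adgre1 at 0.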

How the data were processed

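Input RNA of shScram and shFto 3T3-L1 cells was sequenced in 12 libraries. The authors deposited TPM values that StringTie 2.1.4 computed from reads trimmed by Trim Galore 0.6.5 and placed on GRCm38 by HISAT2 2.1.0; DESeq2 1.30.1 is also among the submitters' tools. TPM keeps no depth, so the depth is unknown and no counting interval can be given. Strand use in counting is not given in the sources used here, so overlapping genes are uncertain. Libraries were grouped by title.

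From the TPM values, log2(TPM + 1) was fitted with limma 3.58.1 in R 4.3.3 (a mean per group, all 12 libraries, 6 residual degrees of freedom, trended eBayes, two-sided). The 15968 genes that reached a TPM of 1 in 2 or more libraries entered, and p-values were adjusted by Benjamini-Hochberg over all of them. A gene was called at an adjusted p under 0.05. Fold changes given as log2 values are on the log2(TPM + 1) scale, so those of low genes are understated; fold values in words are ratios of mean TPM. The fit was tested on simulated data. For Fto, an exact permutation within stages was used. Coordinates and GC content came from GENCODE M21, which held 99.4% of the identifiers. Other steps used Python 3.11.15, numpy 2.4.6, pandas 2.3.3, scipy 1.17.1 and matplotlib 3.10.9.

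The members, lists and rules were chosen with earlier results of these data known. All 7 members are named, as are Fto, the genes of the caveola list that passed between the lines, its muscle forms and close paralogues, and the 3 genes most like Cav1 and Cavin1. Alternatives were pseudocounts of 0.1 and 5, other filters (none, or a mean of 5 TPM), median-ratio and quantile scaling, the libraries of the contrast alone, eBayes without trend or robust, a replicate block, a GC correction, the block with the GC correction, and each library left out. A fit without shScram Pre replicate 1 and shScram Diff replicate 1 was added after seeing the data. Rhein-treated cells and immunoprecipitated RNA were not used here.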

Additional observations from a re-analysis of the deposited data

Results flagged for a closer look

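The difference in Cavin2 between the lines changed between stages by a test of that change itself. The shFto minus shScram difference changed by -2.11 from preadipocytes to MCE (limma interaction, SE 0.26, adjusted p = 0.00314) and by -2.19 from preadipocytes to the Diff stage (SE 0.26, adjusted p = 0.002). Both passed with each of the 12 libraries left out in turn (adjusted p up to 0.0231 and 0.0152) and under all 12 other settings (up to 0.033 and 0.0174). Cavin2 was higher in both shFto libraries at Pre and lower in both at MCE and at Diff. Groups of 2 libraries are too small to look for single libraries far from their group.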

How the results depend on the processing

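With 2 libraries a group and no known depth, precision rests on the spread shared over groups, and leaving out a library leaves a group whose lone sample is assumed to vary like the others. Of 28 called values of the 7 genes, 0 changed sign in any of the 12 alternatives or the 12 fits that left out a library. Over all 7 genes and 12 comparisons, the alternatives gave 1008 values, of which 872 kept their direction and side of the threshold, 34 lost the call, 74 gained it and 28 changed sign; the fits with a library left out gave 881, 58, 49 and 20. The cause of these changes was not tested.

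Shares of all tested genes called are given in brackets. The number of the 7 genes called between the lines at Pre was 3 (28.2%). It was 0 with the libraries of the contrast alone (0.0%) and 5 with the GC correction (32.1%, or 29.7% with the block). At Diff it was 2 (21.2%). It was 4 with median-ratio scaling (21.1%), 5 with quantile normalization (22.8%), 7 with the libraries of the contrast alone (41.4%) and 6 with the GC correction (32.6%, or 30.7% with the block). For MCE minus Pre in shScram cells it was 2 (39.1%), 0 with the contrast's libraries (3.16%) and 5 with the GC correction (44.0%). For Diff minus MCE in shScram cells it was 3 (25.2%), 1 with median-ratio scaling (22.7%) and 5 with the contrast's libraries (40.4%). For Diff minus Pre it was 4 (27.1%), and 0 with the contrast's libraries (2.59%). In shFto cells, MCE minus Pre gave 2 (28.7%), and 1 with no filter (13.3%), quantile normalization (25.3%) or no trend (28.6%). It gave 5 with the contrast's libraries (50.1%) and 4 with the GC correction (38.1%, or 36.9% with the block). Diff minus MCE gave 3 (26.7%), 6 with the contrast's libraries (54.4%) and 5 with the GC correction (39.3%, or 37.5% with the block). The interaction of MCE and Pre gave 1 (5.11%), and 2 with median-ratio scaling (5.78%) and with the GC correction (10.3%, or 8.76% with the block). That of Diff and Pre gave 1 (7.67%), and 2 with median-ratio scaling (7.89%), quantile normalization (8.29%) or the GC correction (15.2%, or 12.6% with the block). That of Diff and MCE gave 0 (2.49%), and 1 with the contrast's libraries (16.9%). With the contrast's libraries alone, 0 genes of 15968 passed between the lines at Pre, 504 for MCE minus Pre and 414 for Diff minus Pre in shScram cells, against 4510, 6236 and 4327 in the fit on all 12. The share of all genes called also moved between the fits of the next paragraph. A change in these counts is thus not by itself a result about the 7 genes.

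Leaving out 1 library at a time, or shScram Pre replicate 1 with shScram Diff replicate 1, gave ranges of 2 to 6 genes called at Pre, 1 to 6 at MCE and 1 to 6 at Diff between the lines. In shScram cells they were 1 to 5 for MCE minus Pre, 1 to 5 for Diff minus MCE and 2 to 6 for Diff minus Pre. In shFto cells they were 1 to 5, 3 to 5 and 2 to 5, and for the interactions 1 to 4 (MCE and Pre), 0 to 0 (Diff and MCE) and 1 to 5 (Diff and Pre).

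None of the 28 called values changed sign, but some uncalled values did, and 2 of them then passed: Cavin1 between the lines at Pre (adjusted p = 0.0108) and Cav2 for MCE minus Pre in shScram cells (adjusted p = 0.0446), both with the GC correction; Cavin1 also did so without shScram Pre replicate 1. With quantile normalization, Cav1 gave -0.09 for MCE minus Pre in shScram cells and 0.29 for the interaction of MCE and Pre, Cavin1 gave -0.02 between the lines at Pre, and Pacsin2 gave -0.08 for Diff minus MCE in shScram cells and 0.02 for the interaction of Diff and Pre. With median-ratio scaling, Cavin3 gave -0.07 and Pacsin2 -0.02 for Diff minus MCE in shFto cells, Pacsin2 gave 0.01 for MCE minus Pre and -0.23 for Diff minus MCE in shScram cells, and Ehd2 gave 0.04 for the interaction of Diff and MCE. With the GC correction, with or without the replicate block, Cav2 gave 0.38 and Cavin3 -0.17 for MCE minus Pre in shScram cells, Cavin1 gave -0.57 between the lines at Pre, Cavin3 gave -0.07 for Diff minus MCE in shFto cells, 0.46 and 0.12 for the interactions of MCE and of Diff with Pre, and Pacsin2 gave -0.13 for Diff minus MCE in shScram cells and 0.02 and 0.16 for these interactions.

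Over the same fits, values with a change of sign ranged as follows. Between the lines at Pre, Cavin1 ranged from -0.58 to 0.80 and Cavin3 from -0.38 to 0.10. For MCE minus Pre, Cavin3 ranged from -0.19 to 0.30 in shScram and from -0.03 to 0.04 in shFto cells, and for Diff minus Pre in shScram cells Pacsin2 ranged from -0.37 to 0.03. In the interaction of MCE and Pre the ranges were -0.24 to 0.11 for Cav1, -0.29 to 0.07 for Cav2 and -0.29 to 0.20 for Cavin3, and in that of Diff and MCE -0.23 to 0.06 for Cavin2 and -0.10 to 0.07 for Ehd2. In the interaction of Diff and Pre they were -1.31 to 0.12 for Cavin1, -0.57 to 0.03 for Cavin3 and -0.28 to 0.12 for Pacsin2.

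Replicate numbers were checked for pairing: deviations of same-numbered libraries correlated above 0.1 in 2 of 15 pairs of groups (range -0.29 to 0.17). The main fit used no block. This check cannot show that same-numbered libraries shared no culture or batch. With the replicate block, the count of genes called was 3 at MCE between the lines, where Cavin2 (-0.63) lost its call, and 2 for Diff minus MCE in shScram cells, where Cav1 (0.50) lost its call. In the other 10 comparisons the block left the count as it was, and over all genes 3818 passed between the lines at Pre, 2433 at MCE and 3021 at Diff, against 4510, 2838 and 3391 without it.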
